A study of Mus musculus with 36 samples.

Results

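Kidney cortex of diabetic mice given benzo-LXA4 was compared with kidney cortex of diabetic mice given lipoxin A4 (LXA4). The comparison takes the 6 libraries labelled diabetic and benzo-LXA4 and the 6 labelled diabetic and LXA4, 12 of the 36 libraries of the study, and covers all genes. All mice were male, on a C57BL/6 background and ApoE-/-, that is, without functional apolipoprotein E. From the age of 6 weeks the diabetic mice had received streptozotocin, which destroys the insulin-producing cells of the pancreas, as 5 daily intraperitoneal injections of 55 mg/kg. LXA4 was given at 5 µg/kg and benzo-LXA4 at 1.7 µg/kg, each by intraperitoneal injection 2 times a week, and vehicle mice received 0.1% ethanol. Nondiabetic ApoE-/- mice of the same strain and the same 3 treatments, 6 libraries each, serve only for contrast. The labels describe an intervention design in which mice were followed for 16 weeks and dosed from week 10 to week 16, but do not say outright that these libraries come from it. The doses differed, so a difference in compound and a difference in dose cannot be told apart. The labels number the replicates 1 to 6 without saying that each is a separate mouse, so p-values reflect only how far these libraries scatter, and some of that scatter may be technical.

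Lipoxins are lipid mediators that cells make from arachidonic acid through lipoxygenases, and they are known for limiting leukocyte recruitment and promoting the resolution of inflammation. They signal mainly through the formyl peptide receptor FPR2. LXA4 is short-lived in tissue because its chain of conjugated double bonds is readily metabolised, and benzo-LXA4 is a synthetic analog in which a benzene ring is built into that part of the molecule. In the kidney, lipoxins have been studied for effects on matrix production, on mesangial and tubular cells and on the transcription factor EGR1. The question of the comparison is whether the analog and the parent mediator left different gene expression in the diabetic cortex.

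The library of LXA4 replicate 6 stood apart before any gene was compared. It held 8896193 counts, against 23467917 to 35906294 in the other LXA4 libraries and 23861061 to 31447742 in the benzo-LXA4 libraries. Nuclear structural RNA, here the genes with a structural RNA type in the GENCODE annotation together with Gm26917, Gm42418 and Gm23935, took 56.9% of its counts, against 2.23% to 5.94% in the other LXA4 libraries and 2.87% to 5.03% with benzo-LXA4. Mitochondrial ribosomal RNA took 0.394% of its counts, against 8.42% to 12.5% in the other libraries compared. The root mean square log2 distance from this library to the other LXA4 libraries was 1.40 to 1.48. Distances among the remaining LXA4 libraries were 0.31 to 0.56, distances among benzo-LXA4 libraries 0.29 to 0.49, and distances from benzo-LXA4 to those LXA4 libraries 0.33 to 0.64. Results are therefore given with and without LXA4 replicate 6. Over all 6 libraries a side, an exact 2-sided permutation test gave p = 0.608 for total counts and p = 0.587 for the nuclear structural share (adjusted p = 0.811 for each over the 4 library measures compared). The same exact permutation test gave p = 0.799 and p = 0.838 without LXA4 replicate 6.

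**Figure D1:**
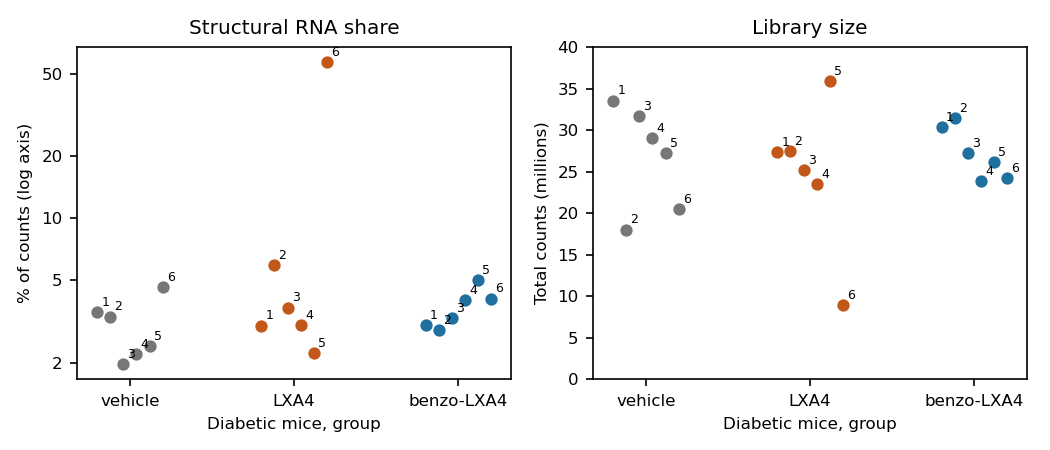
Left, share of counts from nuclear structural RNA genes in each library of diabetic mice (percent, log axis), and right, total counts in units of 1e+06, with replicate numbers beside the points. LXA4 replicate 6 is at 56.9% and 8896193 counts, apart from the other 17 points in both panels.

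The mice carry a disrupted Apoe, so its level was read first as a check of genotype. Apoe had 1.75 to 2.75 CPM (counts scaled to a common library total with TMM factors) with benzo-LXA4 and 2.31 to 3.07 with LXA4. These levels are low in every library and overlap between the groups, although counts over the whole gene do not show which part of it was transcribed.

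No gene passed the test of benzo-LXA4 against LXA4 in diabetic mice. In the quasi-likelihood F test of edgeR with Benjamini-Hochberg adjustment, 0 of 15726 genes tested passed an adjusted p of 0.05 (0%), and the lowest adjusted p was 0.717. DESeq2 and limma-voom with quality weights also called 0 genes. Their lowest adjusted p was 0.0536 with the DESeq2 Wald test, for Igha and Jchain, and 0.243 with limma-voom. At an unadjusted p under 0.05, edgeR listed 1089 genes (6.92% of those tested), 293 higher and 796 lower with benzo-LXA4. Without LXA4 replicate 6 it called 0 genes, with a lowest adjusted p of 0.806. The unadjusted list then held 674 genes (4.29%), 321 higher and 353 lower, so the excess of lower genes was not present without that library. The size of the unadjusted list depended on the fit: with only the 2 groups in the edgeR fit it held 407 genes (2.61%) with all libraries and 1046 (6.69%) without LXA4 replicate 6, and 0 genes passed in either. The median log2 difference over all genes was -0.01 with all libraries and 0.00 without LXA4 replicate 6. The share of all genes above 0, to be read beside the lists below, was 47.7% and 51.2%.

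A p above the threshold does not show that the compounds act alike, so the width of the intervals is given. For 13972 of 15726 genes (88.8%) the 95% interval of the log2 difference lay inside -1 to 1, that is, within a 2-fold difference either way. For 9093 genes (57.8%) it lay inside -0.5 to 0.5. Without LXA4 replicate 6 these counts were 14522 (92.3%) and 10944 (69.6%). The interval reached a median of 0.30 either side of the log2 difference with all libraries and 0.25 without LXA4 replicate 6. With only the 2 groups in the edgeR fit and all their libraries, the shares inside these bounds were 87.5% and 49.9% of 15585 genes. The median reach in that fit was 0.37. Precision followed abundance, with a median reach of 0.22 either side for genes at 16 CPM or more and of 0.70 for genes under 1 CPM. Some 210 genes had a log2 difference beyond 1 in size, and 154 without LXA4 replicate 6, none of which passed.

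**Figure D2:**
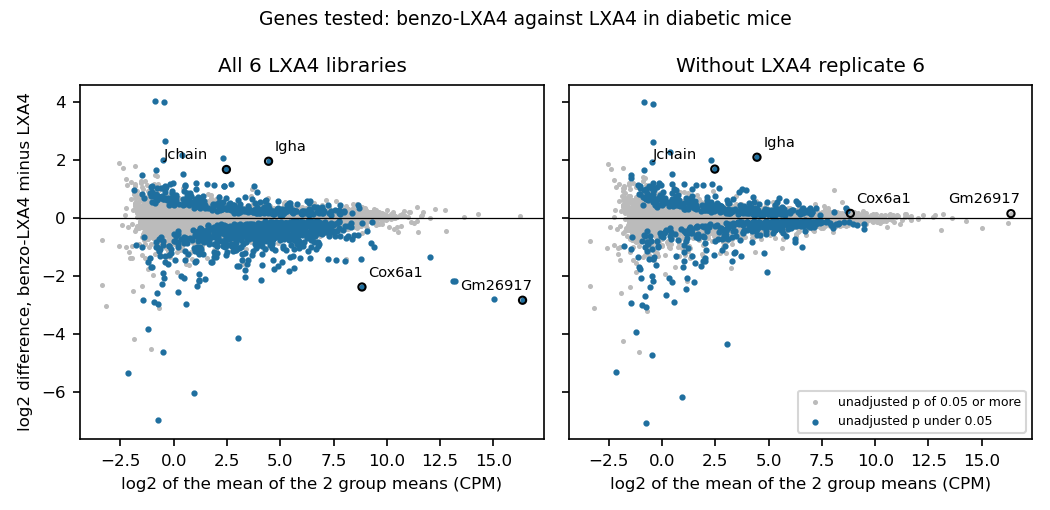
Log2 difference of each gene, benzo-LXA4 minus LXA4, against the log2 of its mean CPM, with all 6 LXA4 libraries (left) and without LXA4 replicate 6 (right). Blue points have an unadjusted p under 0.05 (1089 genes left, 674 right), and Gm26917 and Cox6a1 sit far below zero on the left and near zero on the right.

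Immunoglobulin transcripts led the genes with higher values under benzo-LXA4. Igha (ENSMUSG00000095079, chromosome 12, 113254830 to 113260236, minus strand, GRCm38) encodes the constant region of the IgA heavy chain, the class made by mucosal plasma cells. Igha had 17.95, 32.0, 45.9, 8.44, 63.5 and 39.7 CPM in benzo-LXA4 replicates 1 to 6. In LXA4 replicates 1 to 6 it had 6.75, 6.85, 9.67, 8.16, 8.80 and 15.1 CPM. All benzo-LXA4 libraries but replicate 4 exceeded every LXA4 library. The means were 34.6 ± 19.8 and 9.22 ± 3.10 CPM (SD, n = 6 each), a log2 difference of 1.97 (95% interval 1.06 to 2.87, and 2.11 without LXA4 replicate 6) that did not pass (edgeR adjusted p = 0.717; higher than the LXA4 mean in 5 of 6 libraries). Diabetic vehicle libraries lay across both groups, from 6.39 to 54.7 CPM with a median of 19.1.

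Jchain, which encodes the chain that joins IgA or IgM monomers, had a similar layout. Its lowest, median and highest values were 2.63, 7.76 and 17.9 CPM with benzo-LXA4 and 1.46, 2.75 and 3.56 CPM with LXA4, so replicate 4 of benzo-LXA4 again fell among the LXA4 libraries. The log2 difference of Jchain was 1.68 (0.90 to 2.46), and 1.69 without LXA4 replicate 6. Iglc1, a lambda light chain constant region, was near the detection limit with LXA4, from 0 to 0.410 CPM, and ran from 0.387 to 2.40 CPM with benzo-LXA4, a log2 difference of 2.68 (1.23 to 4.13). Of 9 genes measured whose symbol begins with an immunoglobulin prefix, 8 had a log2 difference above 0 and 0 passed. The list's median was 1.29, and 1.23 without LXA4 replicate 6, beside -0.01 and 0.00 over all genes. The exception, Ighmbp2 (-0.14), encodes a helicase and is no immunoglobulin gene. The list's other log2 differences were Ighg2c (2.19), Iglv1 (2.02), Igkv10-96 (1.29), Ighd (1.11), Ighm (0.76) and Ighg2b (0.46), and segments of these families share sequence, so the counting could divide reads between them.

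Cell type markers were read beside the immunoglobulin genes. Pou2af1, a coactivator of B lineage cells, averaged 0.859 CPM with benzo-LXA4 and 0.266 with LXA4, and its libraries did not overlap. Pou2af1 is outside the marker list below and was named after its values were seen, so its separation is only a description. Mzb1, a chaperone of plasma and marginal zone B cells, had a log2 difference of -0.31 (-0.87 to 0.24), at 1.09 ± 0.15 against 1.46 ± 0.63 CPM (SD, n = 6 each). The list of T, NK and B cell markers, with 10 of 20 members measured, had 6 above 0 and 4 below and a median log2 difference of 0.07, or -0.02 without LXA4 replicate 6. The list includes Jchain, which has its highest log2 difference (1.68), so it is not separate from the immunoglobulin values. The summed level of the list, Jchain included, was 33.4 to 57.2 CPM with benzo-LXA4 and 17.0 to 46.1 with LXA4. Without LXA4 replicate 6 the LXA4 range was 32.1 to 46.1 CPM. In bulk tissue, fewer cells of a type and less RNA per cell cannot be told apart, and the part of cell number in the immunoglobulin values was not tested.

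In nondiabetic mice the immunoglobulin genes gave other values. Igha averaged 8.68 ± 4.19 CPM with benzo-LXA4 and 8.58 ± 4.37 with LXA4 (SD, n = 6 each), a log2 difference of 0.02 (-0.86 to 0.89). Jchain differed by -0.26 (-1.03 to 0.52) there. The interaction of compound with diabetes was 1.95 for Igha (edgeR adjusted p = 0.458) and 1.94 for Jchain (edgeR adjusted p = 0.415), so a dependence on diabetes did not pass.

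The other leading genes with higher values under benzo-LXA4 differed less. Mettl24, a methyltransferase-like gene (ENSMUSG00000045555, chromosome 10), had 38.2 to 55.8 CPM with benzo-LXA4 and 25.6 to 37.0 CPM with LXA4, with no overlap. Its log2 difference of 0.46 (0.19 to 0.74) was the same without LXA4 replicate 6, and the diabetic vehicle mean of 43.6 CPM lay within the benzo-LXA4 range. Plppr1, a brain-enriched relative of lipid phosphate phosphatases, had 24.8 ± 4.3 against 15.6 ± 4.59 CPM (SD, n = 6 each), a log2 difference of 0.64 (0.27 to 1.01). Knstrn, a spindle protein gene, had 2.25 ± 0.73 against 1.15 ± 0.57 CPM (SD, n = 6 each).

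Several noncoding transcripts stood beside them. Gm45064, a long intergenic RNA on chromosome 7, had 3.26, 4.14 and 5.39 CPM as lowest, median and highest with benzo-LXA4 and 0.978, 1.61 and 3.10 CPM with LXA4. The groups did not overlap, and the log2 difference was 1.17 (0.51 to 1.83). Gm44764, on chromosome 6, had 16.2 to 21.03 CPM with benzo-LXA4 and 3.18 to 12.02 CPM with LXA4, again without overlap. It lies opposite Gm7932, and since the strand setting of the counting is not given, reads of the pair may not be separable. Prss23os, antisense in name to Prss23 and uncertain for the same reason, had 1.40 ± 0.32 against 0.530 ± 0.332 CPM (SD, n = 6 each). Gm22973, annotated as a small nuclear RNA, owed its mean of 2.93 CPM to benzo-LXA4 replicate 3 at 7.83 CPM, while the other benzo-LXA4 libraries lay from 1.66 to 2.59 CPM. Gm15492, antisense to Brpf1 and uncertain likewise, differed by 0.51 (0.23 to 0.79).

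Among genes with lower values under benzo-LXA4, some owed the difference to LXA4 replicate 6 alone. Gm26917, annotated as a long intergenic RNA, had 15112 to 23130.3 CPM in LXA4 replicates 1 to 5 and 798416 CPM in replicate 6. Its log2 difference of -2.84 became 0.15 without that library. The TMM factor behind the CPM was 0.476 in replicate 6 and 0.972 to 1.11 in the other LXA4 libraries. CPM of replicate 6 are therefore not shares of its counts. Cox6a1, a subunit of cytochrome c oxidase, had 96.9 to 148 CPM in LXA4 replicates 1 to 5 and 3949.8 CPM in replicate 6, and its difference went from -2.38 to 0.16. Col1a1, a fibrillar collagen chain, had 353 CPM in LXA4 replicate 6 15.7 to 27.5 CPM in the other LXA4 libraries and 15.1 to 30.5 CPM with benzo-LXA4, with a difference of -1.73 that was 0.00 without replicate 6. The nuclear structural RNA share of the same library was 56.9%, and its part in these values was not tested.

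Others kept their size without that library. Lonrf3, a RING finger protein gene (ENSMUSG00000016239, X chromosome, 36328353 to 36362341, plus strand, GRCm38), had 8.84, 13.6 and 19.6 CPM as lowest, median and highest with benzo-LXA4 and 17.9, 23.6 and 30.4 CPM with LXA4. Only the highest benzo-LXA4 library reached into the LXA4 range. The log2 difference was -0.78 (-1.22 to -0.34), and -0.83 without LXA4 replicate 6. Ackr3, an atypical receptor that scavenges the chemokine CXCL12, had 13.8, 18.6 and 21.6 CPM with benzo-LXA4 and 16.2, 31.5 and 37.7 CPM with LXA4 as lowest, median and highest. All LXA4 libraries but replicate 1 were above every benzo-LXA4 library, and the difference was -0.66 (-1.01 to -0.31), beside -0.40 in nondiabetic mice. The ligand gene Cxcl12 differed by 0.08 (-0.29 to 0.44).

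Baz1b, a chromatin remodelling subunit (ENSMUSG00000002748, chromosome 5), had 100.4 to 108 CPM with benzo-LXA4 and 111 to 125 CPM in LXA4 replicates 1 to 5, with replicate 6 at 196 CPM. The groups did not overlap, and the difference of -0.34 (-0.51 to -0.16) was -0.19 (-0.30 to -0.08) without replicate 6. Adra2c, an alpha-2 adrenergic receptor gene, also did not overlap, at 0.300 to 0.719 CPM with benzo-LXA4 and 0.738 to 3.07 CPM with LXA4. Slain2, a microtubule regulator, had 91.8 ± 7.71 against 109 ± 8.94 CPM (SD, n = 6 each), a difference of -0.24 (-0.37 to -0.11). Tmem57 (-0.28), 0610043K17Rik (-0.38), Catsper2 (-0.38), the last a sperm ion channel subunit, and Bnip2 (-0.17), a scaffold protein gene, completed the leading genes of this direction with Atoh8. Each of the 12 leading genes of either direction had an edgeR adjusted p of 0.717.

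Atoh8, a basic helix-loop-helix transcription factor gene (ENSMUSG00000037621, chromosome 6, 72206177 to 72235577, minus strand, GRCm38), had differences of opposite sign in diabetic and nondiabetic mice. In diabetic mice it had 1.85, 2.28 and 3.00 CPM as lowest, median and highest with benzo-LXA4 and 2.91, 3.61 and 5.43 CPM with LXA4, so the ranges met at 1 library a side. The difference was -0.78 (-1.23 to -0.32). In nondiabetic mice it averaged 4.30 ± 0.83 CPM with benzo-LXA4 and 2.38 ± 0.57 with LXA4 (SD, n = 6 each), a difference of 0.85 (0.40 to 1.29). The interaction of -1.62 for Atoh8 had the lowest adjusted p of all genes in that test and did not pass (edgeR adjusted p = 0.155).

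The interaction test as a whole called 0 of 15726 genes with edgeR, 3 with DESeq2 and 1 with limma-voom, and 1463 genes had an unadjusted p under 0.05 (9.3%). Benzo-LXA4 against LXA4 in nondiabetic mice gave 0 genes with edgeR, 2 with DESeq2 and 30 with limma-voom, with 1319 at an unadjusted p under 0.05 (8.39%) and a lowest adjusted p of 0.229.

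**Figure D3:**
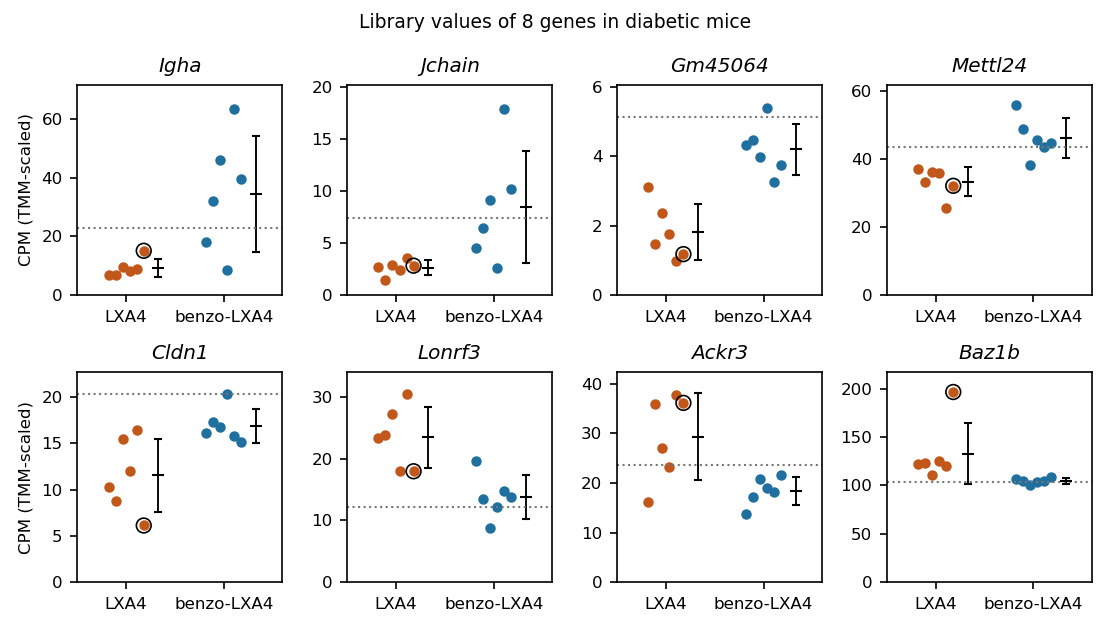
CPM of 8 genes in each diabetic LXA4 (orange) and benzo-LXA4 (blue) library, with mean and SD as bars, the diabetic vehicle mean as a dotted line and LXA4 replicate 6 circled. For Igha all blue points but 1 lie above all orange points, and for Baz1b the groups do not meet while the circled library stands at 196 CPM.

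The libraries of the 2 groups did not overlap for 35 genes (0.223% of those tested), 17 higher and 18 lower with benzo-LXA4. Non-overlap is given as a description that does not set these genes apart from the others tested, and those named here were chosen after their values were seen. The higher ones included Slc29a3, a nucleoside transporter (mean 108 against 82.9 CPM), Apoh, a plasma glycoprotein that binds phospholipid (5.21 against 2.33 CPM), and Trp53, which encodes p53 (22.5 against 19.9 CPM). The lower ones included Id3, an inhibitor of basic helix-loop-helix factors, at 7.83 to 12.02 CPM with benzo-LXA4 and 12.9 to 32.8 CPM with LXA4. They also included Slc25a20, the mitochondrial carnitine carrier, at 31.3 to 34.7 against 35.96 to 53.2 CPM, and Socs1, a feedback inhibitor of cytokine signalling, at a mean of 0.350 against 0.761 CPM. Id1, the close relative of Id3, averaged 4.11 ± 0.85 against 6.84 ± 1.79 CPM (SD, n = 6 each), a difference of -0.71 (-1.34 to -0.07).

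Genes that passed for LXA4 against vehicle were followed into the direct comparison. In diabetic mice 56 genes passed for LXA4 minus vehicle with edgeR (0.356% of those tested), 49 higher and 7 lower, and 0 passed for benzo-LXA4 minus vehicle. The LXA4 count was 43 without LXA4 replicate 6, 231 with DESeq2 and 172 with limma-voom. The benzo-LXA4 count was 52 with DESeq2 and 105 with limma-voom, with 891 genes at an unadjusted p under 0.05, and edgeR without LXA4 replicate 6 called 8. These comparisons share the vehicle libraries with each other and the LXA4 or benzo-LXA4 libraries with the direct comparison. The 56 genes were chosen for a difference in the LXA4 libraries, so their direct values are a description, with no test. Of the 49 genes higher with LXA4, 47 had a benzo-LXA4 minus LXA4 difference below 0, with a median of -0.17, and of the 7 lower with LXA4, 6 were above 0, with a median of 0.45. These medians were -0.12 and 0.36 without LXA4 replicate 6.

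Cldn1, a tight junction claudin of parietal epithelium and other renal epithelia (ENSMUSG00000022512, chromosome 16), had 15.1, 16.4 and 20.3 CPM as lowest, median and highest with benzo-LXA4, and 6.14, 11.2 and 16.4 CPM with LXA4. In vehicle libraries it had 17.0 to 22.3 CPM. Only 2 LXA4 libraries reached the benzo-LXA4 range. The log2 differences were -0.78 for LXA4 minus vehicle, -0.27 for benzo-LXA4 minus vehicle and 0.52 (0.20 to 0.83) for the direct comparison. Of the other claudins, Cldn2, the paracellular cation channel of the proximal tubule, differed by 0.15 (-0.17 to 0.46) and Cldn10 by -0.11 (-0.36 to 0.15). Over the 13 claudins measured, log2 differences ran from -2.58 to 0.52 with a median of -0.07, and 0 passed.

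Egr1, the immediate early transcription factor, had 2.69, 4.17 and 4.61 CPM as lowest, median and highest with benzo-LXA4, 1.65, 2.57 and 3.71 CPM with LXA4, and 6.71 to 9.06 CPM with vehicle. Every library of either compound was below every vehicle library, while the compounds overlapped each other. Its differences were -1.43 for LXA4 minus vehicle, -0.93 for benzo-LXA4 minus vehicle and 0.50 (-0.10 to 1.10) for the direct comparison. That direct value was the highest among the 28 immediate early genes measured, of which 23 were below 0 and 0 passed. The median of these genes was -0.27, or -0.15 without LXA4 replicate 6. The corepressors of EGR1, Nab1 and Nab2, differed by 0.09 (-0.12 to 0.30) and -0.05 (-0.37 to 0.27). Lamb3, a laminin chain, had 11.1 to 18.7 CPM with benzo-LXA4 and 12.1 to 24.3 CPM with LXA4, beside 6.95 to 11.4 CPM with vehicle. Its differences were 0.94 and 0.62 from vehicle and -0.31 (-0.68 to 0.06) directly. Lamb3 overlaps Hsd11b1 and G0s2 on the opposite strand, so its reads may not be separable from theirs.

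Ddc, which makes dopamine from L-DOPA in the proximal tubule, averaged 60.4 ± 10.3 CPM with benzo-LXA4, 53.7 ± 7.49 with LXA4 and 81.4 with vehicle, and the direct difference was 0.17 (-0.12 to 0.45). Wbp5, a small protein of little known function, had 12.3 ± 1.6 CPM with benzo-LXA4, 12.2 ± 1.17 with LXA4 and 18.2 with vehicle, with a direct difference of 0.00 (-0.27 to 0.26). Pcdh18, a protocadherin, differed by -0.73 and -0.28 from vehicle and by 0.45 (0.10 to 0.79) directly. Lrat, which esterifies retinol, differed by -1.22 and -0.92 from vehicle and by 0.30 (-0.29 to 0.89) directly. Gm45064, described above, differed by -1.46 and -0.29 from vehicle. Kmt2d, a histone methyltransferase gene, differed by 0.63 and 0.27 from vehicle and by -0.36 directly, and that direct value was -0.05 without LXA4 replicate 6, which held 477 CPM against 182 to 215 in the other LXA4 libraries.

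**Figure D4:**
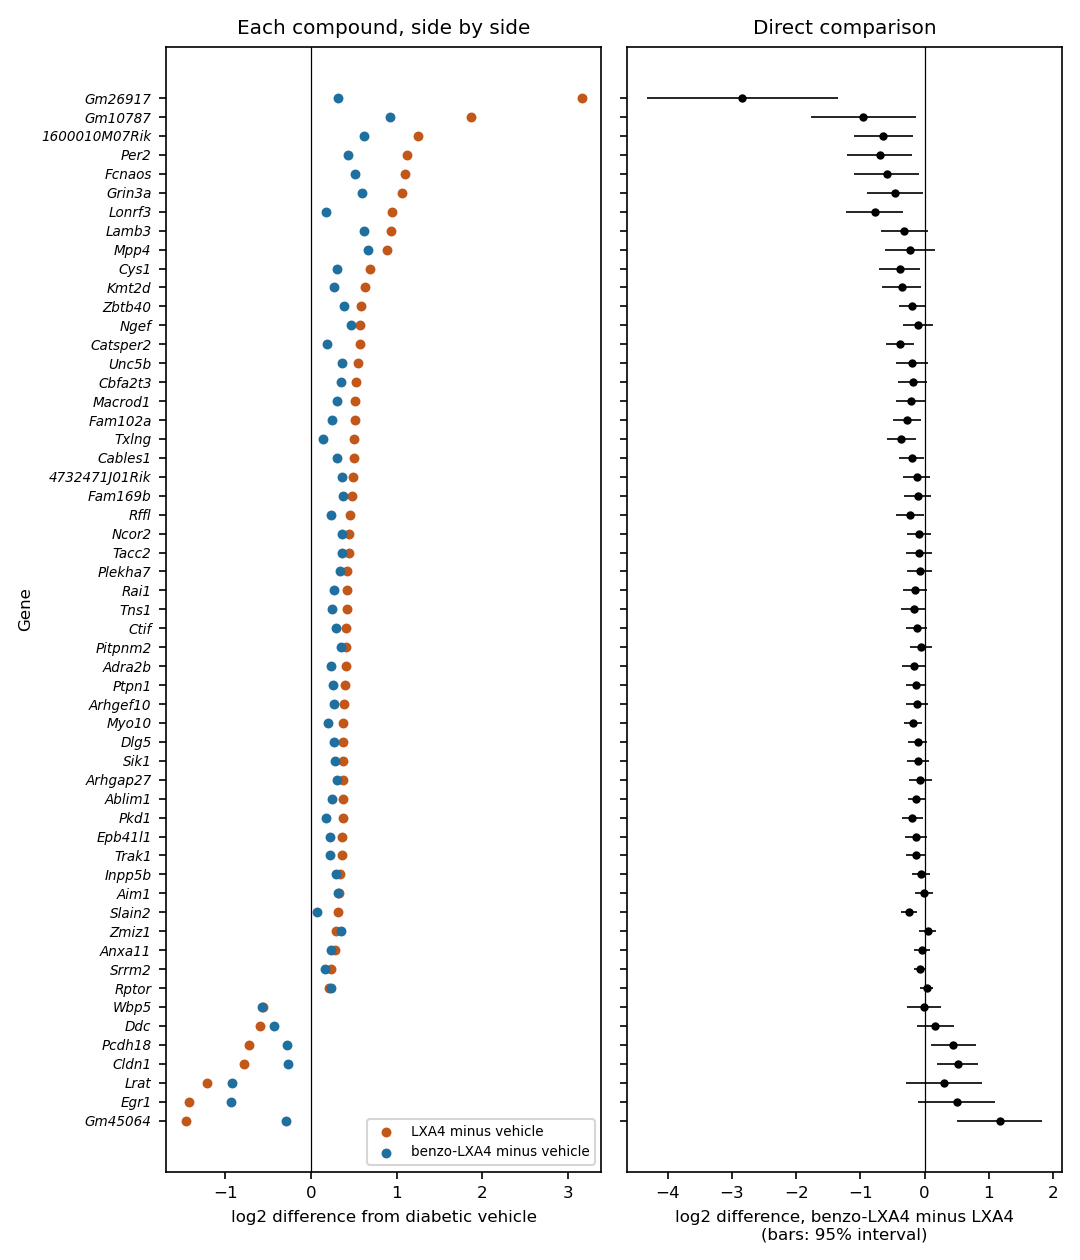
Genes that passed for LXA4 minus vehicle in diabetic mice, with 1 of the 56 not drawn. Left, log2 difference of LXA4 (orange) and of benzo-LXA4 (blue) from vehicle, and right, the direct log2 difference with its 95% interval. For Cldn1 the blue point lies at -0.27 and the orange one at -0.78, and for Wbp5 both points coincide.

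Genes of the circadian clock, a feedback loop in which PER and CRY proteins repress their own activators, had log2 differences below 0 in most members measured, none of which passed. Per2 (ENSMUSG00000055866, chromosome 1) had 77.5, 68.3, 32.7, 39.1, 77.6 and 51.6 CPM in benzo-LXA4 replicates 1 to 6. It had 113, 134, 97.4, 115, 57.8 and 41.8 CPM in LXA4 replicates 1 to 6. The first 4 LXA4 libraries lay above all benzo-LXA4 libraries, and replicates 5 and 6 among them. The difference was -0.70 (-1.20 to -0.19), and -0.83 (-1.32 to -0.35) without LXA4 replicate 6. In nondiabetic mice it was 0.40, with an interaction of -1.10 (edgeR adjusted p = 0.458). Cry1, the partner repressor, had 3.42, 5.42 and 8.03 CPM with benzo-LXA4 and 4.72, 10.2 and 14.98 CPM with LXA4 as lowest, median and highest, a difference of -0.86 (-1.44 to -0.28).

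Clock, Arntl and Nr1d1 had log2 differences above 0, with intervals that included 0. Clock, an activator, differed by 0.18 (-0.11 to 0.47), its partner Arntl by 0.08 (-0.82 to 0.98), and Nr1d1, the repressor of Arntl, by 0.27 (-0.08 to 0.62). Of 13 core clock genes measured, 3 were above 0, 0 passed, and the median was -0.17, or -0.16 without LXA4 replicate 6. Among 11 output factors of the clock 0 were above 0 and 0 passed, with a median of -0.26, or -0.36 without LXA4 replicate 6. Bhlhe40, a repressor of this group, differed by -0.43 (-0.73 to -0.13), and Dbp, a direct output of the loop, by -0.53 (-1.32 to 0.26). The labels used here give no hour of tissue collection, so the part of time of day was not tested.

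Glucocorticoid-responsive genes had a median of -0.38 over 17 members, or -0.24 without LXA4 replicate 6, and 0 passed. Tsc22d3, which encodes the leucine zipper protein GILZ, had 45.6, 63.3 and 73.0 CPM as lowest, median and highest with benzo-LXA4 and 48.4, 87.8 and 144 CPM with LXA4, a difference of -0.61 (-1.03 to -0.18). Sgk1, a kinase that regulates sodium channels, had 68.4 ± 20.5 against 121 ± 64.1 CPM (SD, n = 6 each), with LXA4 replicates 2 and 5 highest at 174 and 217 CPM. Fkbp5, a glucocorticoid receptor co-chaperone, differed by -0.38 (-0.94 to 0.17).

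LXA4 replicates 2 and 5 were also high for Hspa1b and Cfd. Hspa1b, an inducible HSP70 chaperone, had 57.2 and 25.8 CPM in them, 2.83 to 8.93 CPM in the other LXA4 libraries and 5.84 to 11.8 CPM with benzo-LXA4. The 18 heat shock genes measured had a median log2 difference of -0.08, or -0.11 without LXA4 replicate 6, and 0 passed. Cfd, the adipocyte protease adipsin, had 10.97 and 11.8 CPM in replicates 2 and 5, at most 0.0388 CPM in the other LXA4 libraries and at most 0.123 CPM with benzo-LXA4. Vehicle libraries ran from 0.0323 to 9.44 CPM of Cfd. Ucp1, the uncoupling protein of brown fat, had 6.48 CPM in replicate 2 and at most 0.426 CPM in every other library of the comparison. Of 13 adipose markers measured, 11 were below 0 with a median of -3.11, or -3.20 without LXA4 replicate 6, and 0 passed. The summed adipose level was 383 to 569 CPM with benzo-LXA4 and 299 to 623 CPM with LXA4, and it is mostly Lpl, Adipor2 and Pnpla2, which the cortex expresses too.

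Markers of urothelium and inner medulla, tissue next to the cortex, were high in LXA4 replicate 5. Akr1b3, an aldose reductase of the medulla, had 138 CPM there against 15.01 to 18.2 CPM in the other LXA4 libraries and 12.5 to 21.6 CPM with benzo-LXA4. Cldn11, another claudin, had 5.07 CPM there and at most 0.337 CPM in every other library of the comparison. Of 14 markers of this kind measured, 13 were below 0, 0 passed and the median was -1.06, or -1.20 without LXA4 replicate 6. The summed level of these markers was 611 to 701 CPM with benzo-LXA4 and 146 to 863 CPM with LXA4, or 603 to 863 CPM without LXA4 replicate 6. The part of dissection in the values of these libraries was not tested. Erythroid genes had a median of -0.26 over 8 members with 0 above 0, and Hbb-bs, a beta globin, had 66.7 ± 30.8 against 87.9 ± 46.2 CPM (SD, n = 6 each).

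Cell cycle genes were above 0 in 28 of 35 members, with a median of 0.16, or 0.17 without LXA4 replicate 6, and 0 passed. The unadjusted p was under 0.05 for 9 of them with all libraries and for 13 without LXA4 replicate 6, all higher with benzo-LXA4. Over all genes tested, 293 of 15726 were higher at that level, and 321 of 15728 without that library. In both directions together the shares over all genes were 6.92% and 4.29%. Cdc20, an activator of the anaphase-promoting complex, had 0.563, 1.20, 2.72, 2.47, 1.95 and 2.25 CPM in benzo-LXA4 replicates 1 to 6, and 0.472 to 1.23 CPM with LXA4. Benzo-LXA4 replicates 3 to 6 lay above all LXA4 libraries and replicates 1 and 2 did not. The difference was 0.92 (0.32 to 1.53). Mki67, the proliferation marker Ki-67, differed by 0.64 (0.07 to 1.21), Top2a, a topoisomerase of dividing cells, by 0.72 (0.11 to 1.33), and Rrm2, a ribonucleotide reductase subunit, by 0.50 (0.09 to 0.91). Ccnd1, the G1 cyclin, differed by -0.19 (-0.48 to 0.11) and the inhibitor gene Cdkn1a by -0.09 (-0.55 to 0.37).

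Genes of cholesterol and fatty acid synthesis were above 0 in 24 of 35 members, with a median of 0.10, or 0.12 without LXA4 replicate 6, and 0 passed. Insig1, a sterol sensor that retains SREBP, had 28.8, 36.7 and 43.3 CPM as lowest, median and highest with benzo-LXA4 and 18.4, 22.8 and 31.0 CPM with LXA4, a difference of 0.59 (0.13 to 1.04). Vehicle libraries had 30.6 to 53.4 CPM. Msmo1, a sterol methyl oxidase, differed by 0.57 (0.15 to 0.98). Hmgcs1, the cytosolic HMG-CoA synthase gene, differed by 0.22 (-0.11 to 0.55). Igfbp1, a secreted binder of insulin-like growth factors that insulin represses, had 4.51, 6.85 and 10.2 CPM with benzo-LXA4 and 2.06, 3.02 and 5.01 CPM with LXA4, a difference of 1.10 (0.32 to 1.88). The 19 insulin and IGF signalling genes measured ran from -1.87 to 1.10, with 11 above 0, 8 below and 0 passed. Their median was 0.02, or -0.03 without LXA4 replicate 6.

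Enzymes and receptors of the lipoxin and eicosanoid pathway were near 0. Of 26 members measured, 12 were above 0, 0 passed and the median was -0.05, or -0.03 without LXA4 replicate 6. Fpr2, the lipoxin receptor gene, was not analysed here. Alox5, the 5-lipoxygenase that begins leukotriene and lipoxin synthesis, had 0.538, 0.697 and 1.16 CPM as lowest, median and highest with benzo-LXA4 and 0, 0.460 and 0.650 CPM with LXA4. The difference of 0.77 (0.12 to 1.41) did not pass, and vehicle averaged 0.990 CPM. Cysltr2, a leukotriene receptor, differed by 0.34 (0.03 to 0.66), Ephx2, a soluble epoxide hydrolase, by 0.07 (-0.20 to 0.33), and the prostaglandin E2 receptor gene Ptger3 by -0.11 (-0.89 to 0.67).

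Inflammatory and matrix lists differed in how they depended on LXA4 replicate 6, and 0 of their genes passed. The 26 cytokine and NF-kB genes measured had a median of 0.02, or -0.01 without it, with Relb, an NF-kB subunit, at 0.45 (0.11 to 0.79) and Nfkb1 at 0.00 (-0.18 to 0.18). The 34 interferon-response genes had a median of -0.15 with 5 above 0, or -0.19 with 2 above 0 without it, and Usp18, an interferon-induced protease that removes ISG15, differed by -0.46 (-0.87 to -0.05). The 43 matrix and protease genes had a median of -0.24, which was -0.04 without it. Timp3, an abundant inhibitor of metalloproteinases, differed by 0.22 (-0.14 to 0.57). Col4a3, a collagen chain of the glomerular basement membrane, differed by -0.33 (-0.68 to 0.02), and by -0.03 without it. The 20 myeloid markers had a median of 0.00, or 0.18 without it, with 16 above 0, among them Adgre1, the macrophage marker F4/80, at 0.24 (-0.09 to 0.57).

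Proximal tubule markers, which define renal cortex, were abundant in all libraries compared, with Lrp2, the endocytic receptor megalin, at 3475 to 5352 CPM. The 31 proximal tubule genes had a median of 0.03, or 0.01 without LXA4 replicate 6, and a 95% interval inside -1 to 1 for all 31. Lrp2 differed by 0.00 (-0.24 to 0.25) and Slc34a1, the phosphate transporter, by 0.20 (-0.15 to 0.55). The 18 loop of Henle and distal tubule markers had a median of 0.04, 22 podocyte genes -0.01 and 25 endothelial genes -0.01. The 55 nuclear genes of the respiratory chain had a median of 0.06, with 33 above 0, and without LXA4 replicate 6 a median of 0.09 with 53 above 0. Fatty acid oxidation had a median of -0.11 over 39 genes, or -0.12 without that library. Of the 48 lists, the 6 with medians farthest from 0 without LXA4 replicate 6 were the adipose, immunoglobulin, urothelial and medullary, erythroid, clock output and glucocorticoid-responsive ones.

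**Figure D5:**
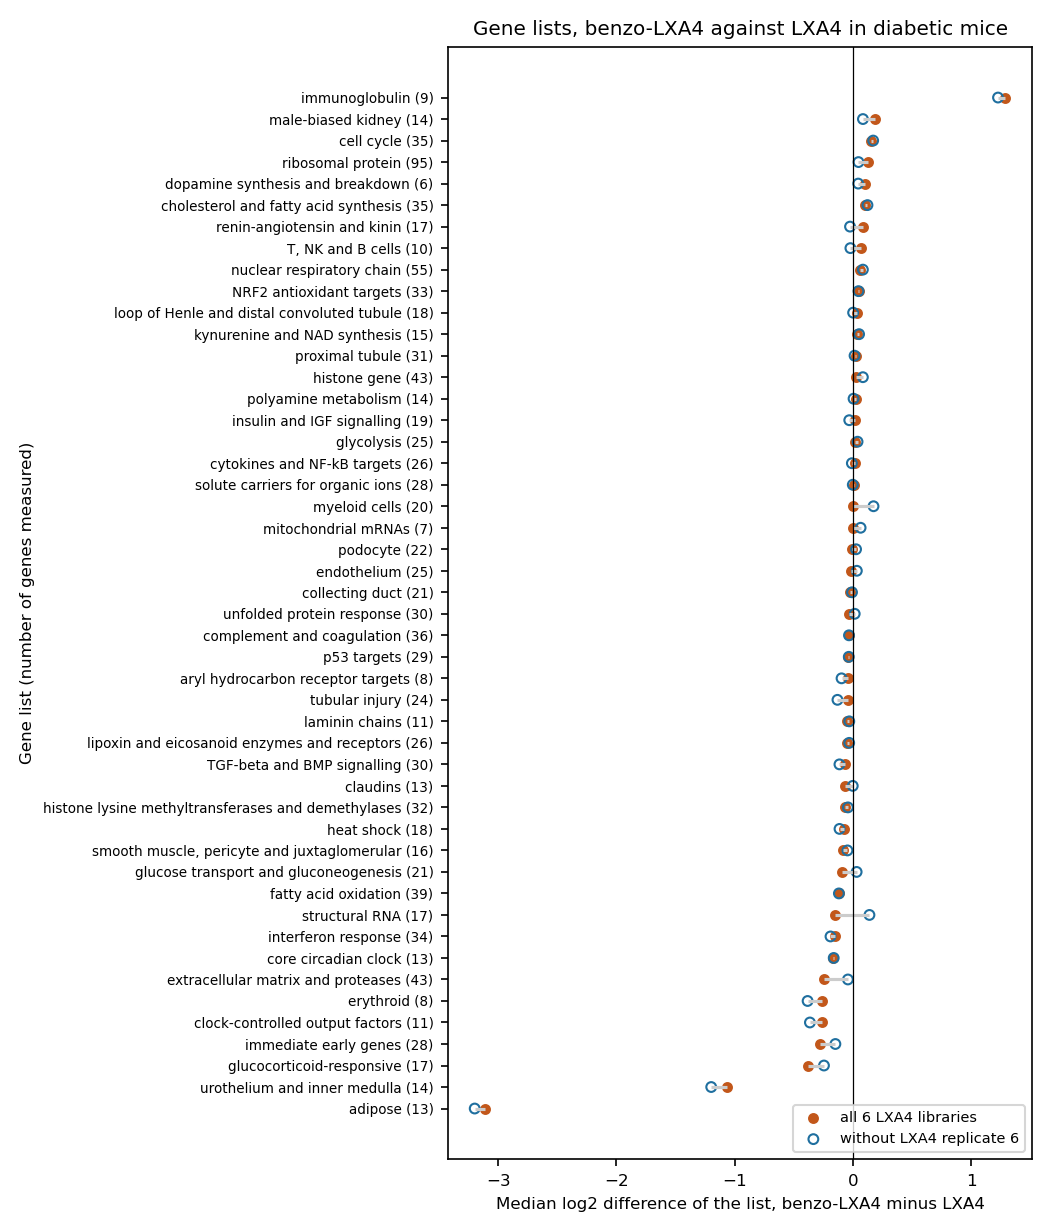
Median log2 difference, benzo-LXA4 minus LXA4, of each of 48 gene lists (number of genes measured in brackets), with all LXA4 libraries (filled) and without LXA4 replicate 6 (open). Immunoglobulin genes lie at 1.29, adipose markers at -3.11 and urothelial and medullary markers at -1.06, while tubular, podocyte and endothelial lists lie within 0.05 of zero.

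Genes that diabetes changed were read last, since the difference they were chosen for lies between vehicle libraries outside the direct comparison. The choice still came from the fit of all 36 libraries, and so also depended on the libraries compared. Between diabetic and nondiabetic vehicle mice 881 genes passed with edgeR (5.6% of those tested), where the fit without LXA4 replicate 6 gave 1852. Of the 881 genes, 541 were higher and 340 lower. Among the 541, the median benzo-LXA4 minus LXA4 difference was 0.05 with 338 above 0, and among the 340 it was -0.03 with 146 above 0. Over all genes 47.7% were above 0. For the same 541 and 340 genes the medians were 0.03 and -0.01 without LXA4 replicate 6. Among the leading diabetes genes, Cdkn1a, the p53-induced cell cycle inhibitor, had 36.5 ± 6.69 CPM with benzo-LXA4 and 38.9 ± 10.6 with LXA4 (SD, n = 6 each), beside 38.6 in diabetic and 4.09 in nondiabetic vehicle mice. Eda2r, a p53-induced receptor, differed by -0.09 (-0.54 to 0.36), and Trp53cor1, a p53-induced noncoding RNA, by 0.09 (-0.30 to 0.48). Dscaml1, a cell adhesion gene, had 72.6 ± 9.58 against 55.3 ± 19.4 CPM (SD, n = 6 each), a difference of 0.39 (-0.07 to 0.85).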

How the data were processed

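Per the labels' protocols, directional libraries were prepared from 200 ng of kidney cortex RNA after rRNA depletion. The authors deposited 1 table of raw read counts, not normalized. Per the submitters' processing notes, the authors used bcl2fastq 2.17.1.14, STAR and featureCounts on GRCm38. For the last 2 tools no version was given in the sources used here, nor the annotation, strand setting or handling of multi-mapping reads, so overlapping genes and sequence-sharing families are uncertain. Columns were matched to samples by their codes.

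The main test was edgeR 4.0.16's quasi-likelihood test (R 4.3.3) on counts of all 36 libraries in 6 groups, with TMM factors and the filterByExpr filter (15726 of 15730 genes kept), Benjamini-Hochberg adjustment over all genes tested and a threshold of 0.05. CPM use the TMM-scaled library total. Standard errors follow from the F statistic or from p, whichever is larger. DESeq2 1.42.0, limma 3.58.1 voom with quality weights, other scalings and filters, 2-group fits, a replicate block and leaving out each library were the alternatives. The steps were tested on simulated data. Coordinates and gene types are from GENCODE M21 (15697 IDs matched). Members and the 48 gene lists were chosen with earlier results of these data known. Named genes were up to 12 of smallest p in each direction with a mean of at least 1 CPM in a group, a fixed set (Apoe, Egr1, Nab1, Nab2, Alox5, Per2, Cldn1, Lamb3, Ddc, Kmt2d, and Fpr2, which was not analysed here), up to 15 genes past the threshold for each compound against vehicle, up to 10 leading diabetes genes, and per list the members of smallest p and highest level. Other genes named in the report were chosen after their values were seen. Same-numbered libraries were not treated as pairs. Some genes are not reported here.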

Additional observations from a re-analysis of the deposited data

Results flagged for a closer look

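In each of the groups of 6, the highest and lowest library were compared with the rest by the gap to the nearest other library relative to the whole range. Chance alone sets apart about 1 in 20 groups. Of 98 sets of values checked, 16 had a library apart, and in 13 of these it was LXA4 replicate 6. That library was apart for the nuclear structural RNA share (56.9%), for the share of genes chosen by symbol as structural RNA (43.2%) and for the mitochondrial ribosomal RNA share (0.394%). It was highest of its group for Gm26917 (798416 CPM), Cox6a1 (3949.8 CPM), Kmt2d (477 CPM), Baz1b (196 CPM), Dlg5, a cell polarity scaffold gene (158 CPM), Ptpn1, a phosphatase of insulin signalling (83.4 CPM), Nab2 (15.8 CPM), Igha (15.1 CPM) and Adra2c (3.07 CPM). It was lowest for Nab1 (20.5 CPM).

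Benzo-LXA4 replicate 3 was apart for Gm22973 (7.83 CPM, highest) and for Slain2 (76.9 CPM, lowest), and benzo-LXA4 replicate 6 for Alox5 (1.16 CPM, highest).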

How the results depend on the processing

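Benzo-LXA4 against LXA4 in diabetic mice gave 0 genes in all 29 fits run, including each of the 12 that left out a library. Of 45 named genes recomputed, 41 kept their direction under every alternative. The other 4 changed sign with LXA4 replicate 6. Leaving out 1 library at a time gave a Gm26917 log2 difference of -3.10 to 0.15, a Cox6a1 log2 difference of -2.64 to 0.16, a Nab1 log2 difference of -0.027 to 0.13 and a Nab2 log2 difference of -0.099 to 0.11, with the sign turned by leaving out LXA4 replicate 6. Like values came from the alternatives added after seeing the data that leave it out (with nondiabetic vehicle replicate 3, Gm26917 0.15, Cox6a1 0.16, Nab1 -0.024, Nab2 0.11; only the 2 groups, 0.15, 0.16, -0.028, 0.11; DESeq2, 0.15, 0.16, -0.028, 0.11). With voom weights they were 0.043, 0.057, -0.018 and 0.081. Nab2 also turned, to 0.014, without benzo-LXA4 replicate 6. Without LXA4 replicate 6 the benzo-LXA4 minus LXA4 differences turned for total counts (-680759), the nuclear structural share (0.13 percentage points) and the mitochondrial ribosomal RNA share (-0.94 percentage points).

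Counts of other comparisons moved. DESeq2 gave 2 genes for the compounds in nondiabetic mice, 3 for the interaction, 231 for LXA4 minus vehicle, 52 for benzo-LXA4 minus vehicle and 1330 for diabetes. Without LXA4 replicate 6, benzo-LXA4 minus vehicle gave 8 and diabetes 1852. That library is in neither comparison, but it is in the fit of all 36 libraries, whose groups share an estimate of the spread. Which step of the shared fit moved these counts was not tested. Same-numbered libraries correlated from -0.16 to 0.22, over 0.1 in 2 of 6 pairs, and 1 benzo-LXA4 library correlated best with its own number. With the replicate number as a block the comparison of the compounds gave 0 genes and LXA4 minus vehicle 28. The lowest adjusted p of a named gene in any fit was 0.0536, for both Igha and Jchain with the DESeq2 Wald test. Without LXA4 replicate 6 that test gave an adjusted p of 0.0826 for Igha and 0.0963 for Jchain. Depth limits genes under 1 CPM most.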
